A study of Mus musculus with 12 samples.

Results

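The solute carrier (Slc) genes of cultured primary mouse melanocytes were taken from 12 Illumina Mouse-6 BeadChip arrays. A gene counted as a member when it was protein coding, lay on an autosome, had a symbol starting with Slc and a digit, and had a probe above background. The deposited table gives no gene names, so the number in a probe's identifier was read as an NCBI mouse gene number. The limit was a detection p below 0.01 on 1 array or more of the 12, where the detection p compares a probe with the negative control beads of its array. Of 124 autosomal Slc genes with a named probe 56 passed, among 3777 named genes that passed in the whole table. The genes nearest to the limit were Slc35a3 inside, with a lowest detection p of 0.00998, and Slc39a14 outside, at 0.0106. Of the 56 genes 41 were above background on all 12 arrays, and 4 (Slc10a4, Slc25a30, Slc25a51 and Slc39a10) on 1 array. Of the 56 symbols 2 do not belong to transporters. Slc9a3r1 encodes a scaffold protein that binds a sodium/proton exchanger, and Slc7a6os is named for its place opposite Slc7a6.

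The arrays form 6 groups of 2, with each culture in hypoxia (1% O2 for 12 h) and in normoxia. By their labels the cultures were ATF2-/- given 4-OHT, ATF2-/- without it and WT without it. The mice carry a 4-OHT-inducible Cre recombinase under the tyrosinase promoter, which is active in pigment cells, and in the mutants floxed Atf2 exons whose removal leaves an ATF2 without its DNA-binding domain. Mice of both genotypes also carry mutant NRAS Q61K, switched on by doxycycline, on an Ink4a-/- background, and every culture had doxycycline. Doxycycline was at 2 µg/ml over 24 h, and 4-OHT was given at 10 µM over 8 h. No WT array carries a 4-OHT label. The paper's methods describe 4-OHT and doxycycline treatment of the primary melanocytes before RNA isolation and name no culture left without 4-OHT. The groups here follow the labels. The ATF2-/- cultures without 4-OHT carry the same genotype label, although their labels list no 4-OHT to activate Cre. Without WT cultures labelled as given 4-OHT, effects of 4-OHT itself and of the deletion cannot be told apart. The study's methods speak of biological and technical replicates without saying which arrays are which, so p-values measure only the spread between these arrays.

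Solute carriers move ions, metals, amino acids, sugars, vitamins and nucleotides across the plasma membrane and the membranes of mitochondria, Golgi and lysosomes. Some exchange one ion for another, some couple uptake to sodium or protons, and the Slc25 family shuttles metabolites over the inner mitochondrial membrane. In melanocytes, ion and proton transporters of the melanosome set its pH and calcium, on which melanin synthesis depends. Low oxygen acts through HIF, which raises genes of glycolysis, the glucose transporter Slc2a1 and the lactate exporter Slc16a3 among them. Neither of these 2 had a named probe, so both were not analysed here. Of 32 transporters listed for melanocytes, hypoxia or nutrient stress 9 had a named probe and 4 passed (Slc24a4, Slc39a1, Slc4a7 and Slc19a1).

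Some facts of the arrays touch the results. Atf2 had a probe that no array showed above background, so loss of Atf2 RNA could not be checked. A probe of Xist was above background on 8 of 8 ATF2-/- arrays and 0 of 4 WT arrays, and the Y-linked Eif2s3y on 0 of 8 and 4 of 4, so genotype and sex of the cultures cannot be told apart. The melanocyte markers Dct, Gpnmb and Trpm1 were above background on all arrays, and 0 of 5 myeloid markers on any. Of 5 skeletal muscle markers (Car3, Chrna1, Chrng, Eno3 and Myh7) all were above background in ATF2-/- 4-OHT cultures in hypoxia and normoxia and in ATF2-/- cultures in normoxia, with summed intensities of 5994 to 9926 units. Their sum was 324 and 433 units in ATF2-/- cultures in hypoxia, and 219 to 304 units in WT cultures, with 1 of 5 above background. These 5 are genes that earlier results of these arrays had shown to change, so they are no independent evidence. Fibroblast markers (5 of 9 above background, against 2 of 9) moved with the same groups, while Col1a1, Col1a2, Col3a1 and Postn were above background on 0 arrays. Fibroblast sums were 1112 to 1683 units in the groups with 5 of 9, 825 and 1153 units in ATF2-/- hypoxia and 499 to 868 units in WT cultures. The detected keratinocyte markers were Krt10 and Krt17 (2 of 4, or 1 to 2 in ATF2-/- hypoxia). Their list sums were 171 and 221 units in ATF2-/- hypoxia and 262 to 675 units on the other arrays. The detected Schwann cell markers were Pmp22 and S100b (2 of 4), with 1 of 4 above background in ATF2-/- hypoxia and 2 of 4 in WT hypoxia. Their list sums were 801 and 1401 units in ATF2-/- hypoxia, against 2647 and 4058 units in WT hypoxia, and 1044 to 4835 units in the other groups. Of 3 endothelial markers Emcn and Eng were detected in at least 1 group, with 1 of 3 above background in ATF2-/- hypoxia and in WT hypoxia. The endothelial sum was 434 and 532 units in ATF2-/- hypoxia, against 263 and 370 units in WT hypoxia. The part of these cells in the Slc values was not tested, and in bulk RNA fewer cells of a type and less RNA per cell cannot be told apart. The 2 arrays of ATF2-/- 4-OHT cultures in normoxia differed most from each other, with 1264 of 14906 probes apart by 2-fold or more, against 4 in WT normoxia.

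Across the 9 comparisons of 2 groups, 32 of the 56 genes were called at least once at an adjusted p under 0.05 (limma, Benjamini-Hochberg over all 14906 kept probes), and 24 never. Of all kept probes 50.1% were called at least once, so the share of the Slc genes (57.1%) lay near the background. A single limma fit to all 12 arrays leaves 6 residual degrees of freedom. The replicate number is also the slide, and each slide held all 6 groups. With the slide as a block 0 of all calls were lost, those on differences in the change with hypoxia included, and 23 were gained, given below where a gene or difference is described as not called without it. Slc24a4 was called in 5 comparisons, and Slc44a1, Slc8a1, Slc39a1 and Slc39a3 in 4 each. Slc8a1 became a member only through groups where it was high, so nothing is read from its calls or its place among the changes. The largest changes were those of Slc24a4, Slc44a1, Slc8a1 and Slc4a8, and their promoters (250 bases before to 50 after the start site, RefSeq, GRCm38.p6) are printed so that the genes with the largest changes can be read beside their values. Capitals mark, on either strand, ACGTG and GCGTG (the core of HIF sites), CATGTG (a core of MITF sites) and TGACG (part of the site that ATF2 dimers bind). ACGTG is also part of CACGTG, a site for MITF and related factors. The windows are chr12:102128477-102128776 on the + strand, chr4:53440163-53440462 on the + strand, chr17:81738338-81738637 on the - strand and chr15:100761497-100761796 on the + strand.
Slc24a4: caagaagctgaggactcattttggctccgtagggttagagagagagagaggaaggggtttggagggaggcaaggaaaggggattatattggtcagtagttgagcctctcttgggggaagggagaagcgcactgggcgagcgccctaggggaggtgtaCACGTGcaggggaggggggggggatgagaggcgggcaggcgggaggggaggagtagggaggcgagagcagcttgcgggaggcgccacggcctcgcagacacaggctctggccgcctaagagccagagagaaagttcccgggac
Slc44a1: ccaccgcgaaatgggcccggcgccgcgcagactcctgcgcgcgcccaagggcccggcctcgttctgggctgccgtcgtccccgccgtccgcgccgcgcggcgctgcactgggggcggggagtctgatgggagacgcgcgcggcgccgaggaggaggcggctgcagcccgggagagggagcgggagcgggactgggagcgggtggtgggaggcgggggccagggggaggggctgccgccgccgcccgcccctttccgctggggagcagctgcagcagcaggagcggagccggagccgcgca
Slc8a1: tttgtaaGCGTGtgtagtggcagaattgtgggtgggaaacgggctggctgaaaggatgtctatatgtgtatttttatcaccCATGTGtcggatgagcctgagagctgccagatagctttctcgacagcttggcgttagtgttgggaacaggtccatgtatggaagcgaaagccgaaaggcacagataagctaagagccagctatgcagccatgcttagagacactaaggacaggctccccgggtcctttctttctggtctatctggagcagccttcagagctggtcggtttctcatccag
Slc4a8: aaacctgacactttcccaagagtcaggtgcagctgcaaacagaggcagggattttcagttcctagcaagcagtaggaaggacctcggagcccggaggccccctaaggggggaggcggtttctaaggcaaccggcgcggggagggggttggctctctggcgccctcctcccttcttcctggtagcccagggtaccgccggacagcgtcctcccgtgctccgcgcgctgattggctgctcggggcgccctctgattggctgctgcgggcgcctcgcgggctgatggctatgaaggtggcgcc

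The Slc24a4 window holds CACGTG, a hexamer found in 7.84% of 21263 promoters of protein-coding genes. The Slc8a1 window holds GCGTG and CATGTG, and the Slc44a1 and Slc4a8 windows hold none of the motifs. ACGTG or GCGTG occurs in 49.3% of all promoters and in 30 of the 58 promoters (51.7%) that the table holds for 42 of the 56 genes. CATGTG occurs in 11.5% of all promoters and in 3 of the 58, and TGACG in 23.6% and in 13 of the 58. A match is a run of letters and not a measured binding site.

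Among the members called between hypoxia and normoxia in WT cultures, Slc24a4 and Slc4a8 had the largest differences. Slc24a4 encodes a potassium-dependent sodium/calcium exchanger whose human gene is linked to pigmentation. In ATF2-/- 4-OHT cultures it stood at 363 and 483 units in hypoxia and at 409.9 and 481 units in normoxia, a log2 difference of -0.18 (adjusted p = 0.748). In ATF2-/- cultures it stood at 530 and 788 units in hypoxia and at 354 and 539.8 units in normoxia, and rose by 0.60 (standard error 0.14, adjusted p = 0.0209). In WT cultures Slc24a4 had 131 and 155 units in hypoxia, against 380.2 and 479 units in normoxia. It fell there by 1.88 on the log2 scale (standard error 0.14, limma adjusted p = 0.000211, n = 2 arrays each), or 3.69-fold. The WT arrays in hypoxia were thus the lowest, and the other 10 arrays stood at 354 units or more. The change with hypoxia in ATF2-/- cultures exceeded that in WT cultures by 2.48 (standard error 0.20, adjusted p = 3.47e-05), and that in ATF2-/- 4-OHT cultures exceeded it by 1.71 (standard error 0.20, adjusted p = 0.0218). For ATF2-/- 4-OHT against WT the adjusted p was 0.114 in a fit to only the 8 arrays compared and 0.163 without WT normoxia replicate 1. The rise in ATF2-/- cultures reached an adjusted p of 0.166 without ATF2-/- hypoxia replicate 2. Set side by side in hypoxia, Slc24a4 was 3.16-fold higher in ATF2-/- 4-OHT than in WT cultures (log2 1.66, standard error 0.14, adjusted p = 2.04e-05) and 5.16-fold higher in ATF2-/- than in WT cultures (log2 2.37, standard error 0.14, adjusted p = 3.69e-06). It was 1.63-fold lower in ATF2-/- 4-OHT than in ATF2-/- cultures (adjusted p = 0.00418). In normoxia none of the 3 pairs of cultures was called for Slc24a4.

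**Figure D1:**
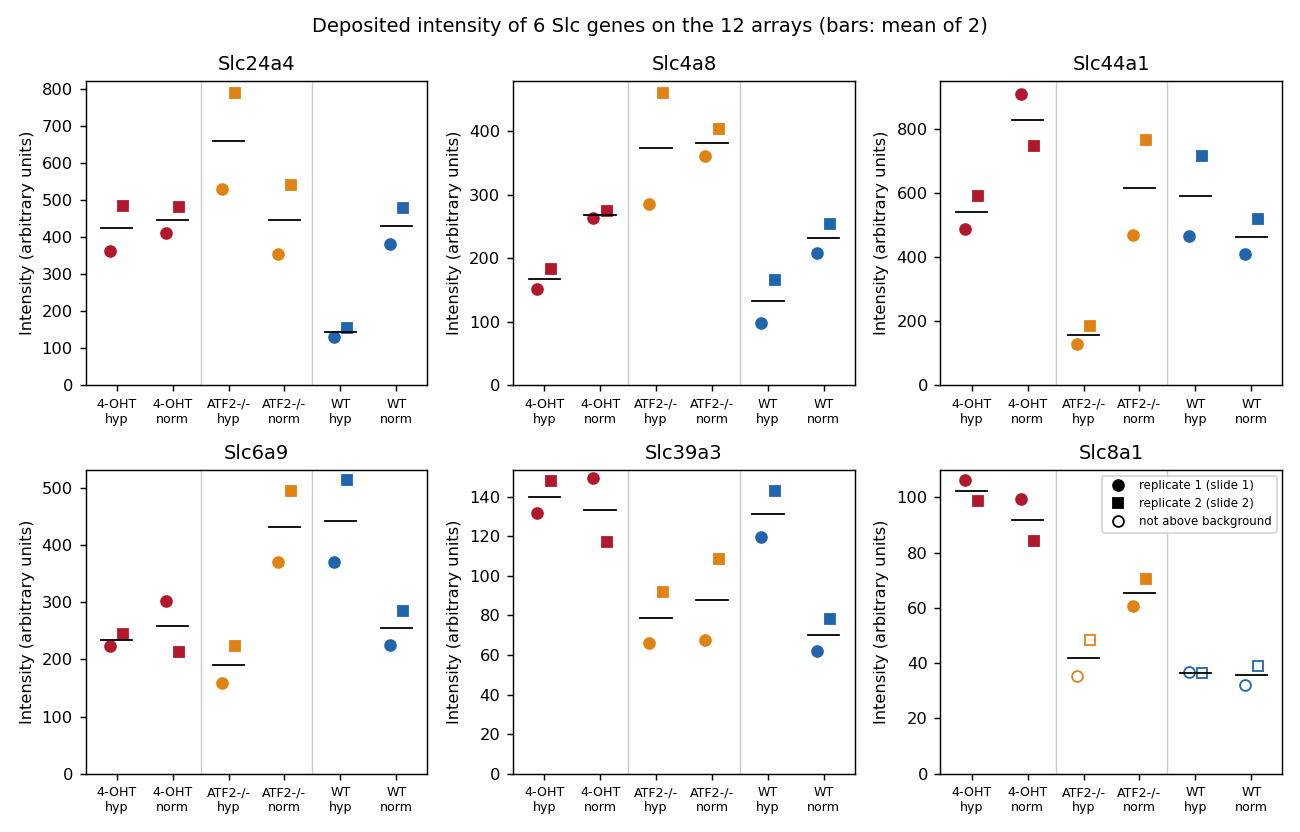
Deposited intensity (arbitrary units, background included) of 6 Slc genes on each of the 12 arrays, with circles for replicate 1, squares for replicate 2, open symbols for probes not above background and bars for the mean of 2 arrays. Slc24a4 lay at 131 and 155 units in WT hypoxia and Slc44a1 at 127 and 184 units in ATF2-/- hypoxia, each below the other 10 arrays.

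Slc4a8, which encodes a sodium-driven chloride/bicarbonate exchanger, had 151 and 184 units in ATF2-/- 4-OHT cultures in hypoxia and 263 and 274 units in normoxia (log2 -0.81, adjusted p = 0.418). In ATF2-/- cultures it had 286 and 461 units in hypoxia and 360.2 and 404 units in normoxia (log2 -0.04, adjusted p = 0.944). WT cultures had 98.1 and 166 units in hypoxia, against 208 and 255 units in normoxia. There Slc4a8 fell by 1.10 (standard error 0.23, adjusted p = 0.0157), and the adjusted p reached 0.132 without WT normoxia replicate 1. The differences between cultures in this change were not called (adjusted p = 0.0554 for ATF2-/- against WT, 0.049 with the slide as a block and 0.0304 in a fit to only the 8 arrays compared). Under hypoxia it was 3.21-fold higher in ATF2-/- than in WT cultures (log2 1.68, standard error 0.23, adjusted p = 0.000461). It was also 2.39-fold lower in ATF2-/- 4-OHT than in ATF2-/- cultures under hypoxia (log2 -1.26, adjusted p = 0.00197).

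Of the other 6 ion transporters, Slc4a3, an anion exchanger, had 188 and 275 units in ATF2-/- cultures in hypoxia, against 385 and 426 units in normoxia (log2 -0.84, standard error 0.22, adjusted p = 0.0291, or 0.232 without ATF2-/- normoxia replicate 1). Slc4a7, a sodium bicarbonate cotransporter, had 226 and 335 units in ATF2-/- cultures, against 134 and 197 units in WT cultures, both in normoxia (log2 0.69, standard error 0.16, adjusted p = 0.0174, or 0.155 without WT normoxia replicate 1). The anion exchanger Slc4a2 (1237 to 2095 units) and the sodium/proton exchanger Slc9a8 (37.7 to 61.9 units) were not called in any of the 9 comparisons.

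Slc8a1, which encodes the sodium/calcium exchanger NCX1 known from heart muscle, had 106 and 98.5 units in ATF2-/- 4-OHT cultures in hypoxia and 99.2 and 84.2 units in normoxia. ATF2-/- cultures had 35.5 and 48.5 units in hypoxia, not above background, and 60.7 and 70.3 units in normoxia. WT cultures had 36.8 and 36.4 units in hypoxia and 32.0 and 39.2 units in normoxia, again not above background. Slc8a1 thus passed on 6 arrays, all of groups called higher below. It became a member only through groups where it was high, and nothing is read from its calls. Where a group was not above background, a bound was taken from the higher of its own value and the lowest normalised value of a probe above background on each array. Slc8a1 was at least 3.10-fold higher in ATF2-/- 4-OHT than in WT cultures in hypoxia (adjusted p = 0.00221) and at least 2.62-fold higher in normoxia (adjusted p = 0.00279). It was at least 1.78-fold higher in ATF2-/- than in WT cultures in normoxia (adjusted p = 0.0307, or 0.187 without ATF2-/- normoxia replicate 1). Under hypoxia ATF2-/- 4-OHT exceeded ATF2-/- cultures at least 2.81-fold (adjusted p = 0.002). Over the alternative settings these log2 differences were as low as 0.23, 0.19, 0.10 and 0.22, in the order given. The calls against WT were lost with the detection p-values left unchanged for the background correction. The call of ATF2-/- against WT cultures in normoxia was lost in 6 of 13 settings, the authors' normalised values among them. The call against ATF2-/- cultures was kept in every setting. The bounds thus hold only for the background correction reported. The 6 arrays with Slc8a1 above background were the 6 arrays with muscle marker sums of 5994 units or more, and the other 6 had sums of 433 units or less. Those muscle markers are genes that earlier results of these arrays had shown to change, so the match is no independent evidence. The part of muscle RNA in these Slc8a1 values was not tested.

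**Figure D2:**
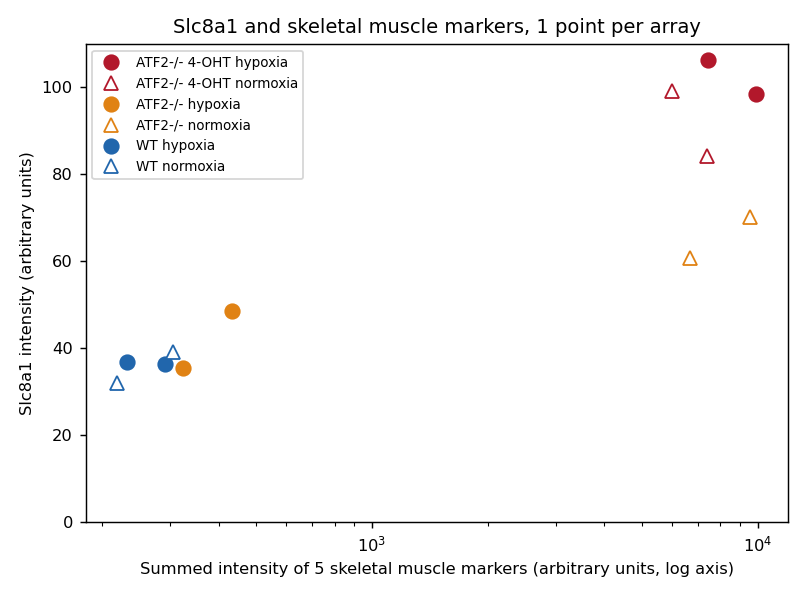
Slc8a1 intensity (arbitrary units) against the summed intensity of 5 skeletal muscle markers (arbitrary units, log axis), with 1 point per array, filled circles for hypoxia, open triangles for normoxia and colours for the 3 cultures. The 6 arrays with sums of 5994 to 9926 units had Slc8a1 at 60.7 to 106 units, and the 6 with sums of 219 to 433 units had it at 32.0 to 48.5 units. The markers are genes that earlier results of these arrays had shown to change.

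The 2 choline transporters were called lower in hypoxia than in normoxia in ATF2-/- cultures without 4-OHT. Slc44a1, a choline transporter-like protein that supplies choline for membrane lipids, had 127 and 184 units in ATF2-/- cultures in hypoxia, against 469 and 765 units in ATF2-/- cultures in normoxia. It fell by 2.05 (standard error 0.20, adjusted p = 5.72e-05), or 4.15-fold. In ATF2-/- 4-OHT cultures it had 489 and 591 units in hypoxia and 911 and 748 units in normoxia (log2 -0.74, adjusted p = 0.394). It was thus lower in hypoxia on each slide there too, without being called. WT cultures had 467 and 715 units in hypoxia and 409 and 518 units in normoxia (log2 0.14, adjusted p = 0.721). The change in ATF2-/- cultures differed from that in WT cultures by -2.19 (standard error 0.28, adjusted p = 0.000729). The change in ATF2-/- 4-OHT cultures differed from that in ATF2-/- cultures by 1.31 (standard error 0.28, adjusted p = 0.02, or 0.101 without ATF2-/- hypoxia replicate 1). Within hypoxia Slc44a1 was 3.87-fold lower in ATF2-/- than in WT cultures (adjusted p = 6.96e-05) and 3.62-fold higher in ATF2-/- 4-OHT than in ATF2-/- cultures (adjusted p = 6.42e-05). In normoxia it was 1.72-fold higher in ATF2-/- 4-OHT than in WT cultures (adjusted p = 0.0172, or 0.111 without WT normoxia replicate 2).

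Slc44a2, the related mitochondrial and plasma membrane protein, had 1028 and 1454 units in ATF2-/- cultures in hypoxia, against 1631 and 2792 units in normoxia (log2 -0.80, standard error 0.22, adjusted p = 0.0386, or 0.193 without ATF2-/- hypoxia replicate 1). ATF2-/- 4-OHT cultures in hypoxia had 2278 and 3075 units, 2.08-fold above ATF2-/- cultures in hypoxia (adjusted p = 0.00495). Slc44a2 is the only member with a second probe above background, on 1 array and at 58.0 units at most. These comparisons set ATF2-/- hypoxia arrays against others. Muscle and fibroblast markers were lower on the same arrays than in ATF2-/- normoxia and in ATF2-/- 4-OHT hypoxia. The 5 muscle markers differed by a median log2 of -5.98 between ATF2-/- hypoxia and normoxia and by 5.24 between ATF2-/- 4-OHT and ATF2-/- cultures in hypoxia. Between ATF2-/- and WT cultures in hypoxia, where Slc44a1 was also lower, their median difference was 0.04 (Eno3 called higher). The fibroblast markers differed there by a median of 0.24 (Loxl1 called higher). There the keratinocyte markers differed by a median of -1.90 (Krt17 called lower), the Schwann cell markers by -1.44 (Pmp22 and S100b called lower) and the endothelial markers by 0.43 (Eng called higher), and the part of such RNA in the Slc genes called in that comparison was not tested. The part of muscle or fibroblast RNA in the changes of Slc44a1, Slc44a2, Slc4a3, Slc6a9 and Slc22a23 between ATF2-/- hypoxia and normoxia was not tested.

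Slc6a9, the glycine transporter GlyT1, fell with hypoxia in ATF2-/- cultures. It had 159 and 223 units in ATF2-/- cultures in hypoxia, against 371 and 494 units in normoxia (log2 -1.24, standard error 0.24, adjusted p = 0.007, or 0.0678 without ATF2-/- normoxia replicate 1). WT cultures had 370.3 and 514 units in hypoxia and 224 and 284 units in normoxia (log2 0.62, adjusted p = 0.126, or 0.00707 in a fit to only the 4 WT arrays). The change differed between ATF2-/- and WT cultures by -1.86 (standard error 0.34, adjusted p = 0.00575). Under hypoxia Slc6a9 was 2.31-fold lower in ATF2-/- than in WT cultures (adjusted p = 0.00482) and 1.88-fold lower in ATF2-/- 4-OHT cultures (223 and 245 units, adjusted p = 0.0305, or 0.184 without WT hypoxia replicate 2).

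The Slc7, Slc38 and Slc66 families hold amino acid transporters. Slc66a1, which exports cationic amino acids from lysosomes, had 135 and 171 units in ATF2-/- cultures in hypoxia, against 93.4 and 116 units in WT cultures (log2 0.67, standard error 0.18, adjusted p = 0.0226). ATF2-/- 4-OHT cultures had 85.6 and 119 units in hypoxia, below ATF2-/- cultures (log2 -0.75, adjusted p = 0.011). Slc7a4 was at least 1.62-fold higher in ATF2-/- 4-OHT than in WT cultures in hypoxia (adjusted p = 0.0498), and the adjusted p reached 0.343 without WT hypoxia replicate 1. Slc7a4 was above background on 5 of the 12 arrays and not on the WT hypoxia arrays, so nothing is read from its call. That call was lost in 9 of 13 alternative settings, the authors' normalised values among them. The cationic amino acid transporter Slc7a2 stayed between 46.5 and 77.7 units, and Slc38a9, the lysosomal arginine sensor, between 69.8 and 123 units. Neither was called. Of 5 genes of the amino acid response with a kept probe (Aars, Cebpb, Phgdh, Sars and Vldlr) 1 (Aars) was higher and 0 lower in ATF2-/- than in WT cultures in normoxia. With hypoxia 1 (Phgdh) fell in ATF2-/- cultures and 0 were called in WT cultures.

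Slc19a1, the reduced folate carrier, had 126 and 159.5 units in WT cultures in hypoxia, against 67.0 and 99.1 units in WT cultures in normoxia. It rose with hypoxia by 0.78 (standard error 0.21, adjusted p = 0.0402, or 0.248 without WT normoxia replicate 1). In normoxia it was 1.75-fold higher in ATF2-/- 4-OHT cultures (145 and 138 units, adjusted p = 0.0191) and 1.78-fold higher in ATF2-/- cultures (134 and 155 units, adjusted p = 0.0223) than in WT cultures. Both comparisons use the same WT arrays, and without WT normoxia replicate 1 the adjusted p was 0.142 and 0.176. The change with hypoxia differed between ATF2-/- and WT cultures by -1.22 (standard error 0.29, adjusted p = 0.023, or 0.105 without WT normoxia replicate 1). The riboflavin transporter Slc52a2 lay between 151 and 223 units and was not called.

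**Figure D3:**
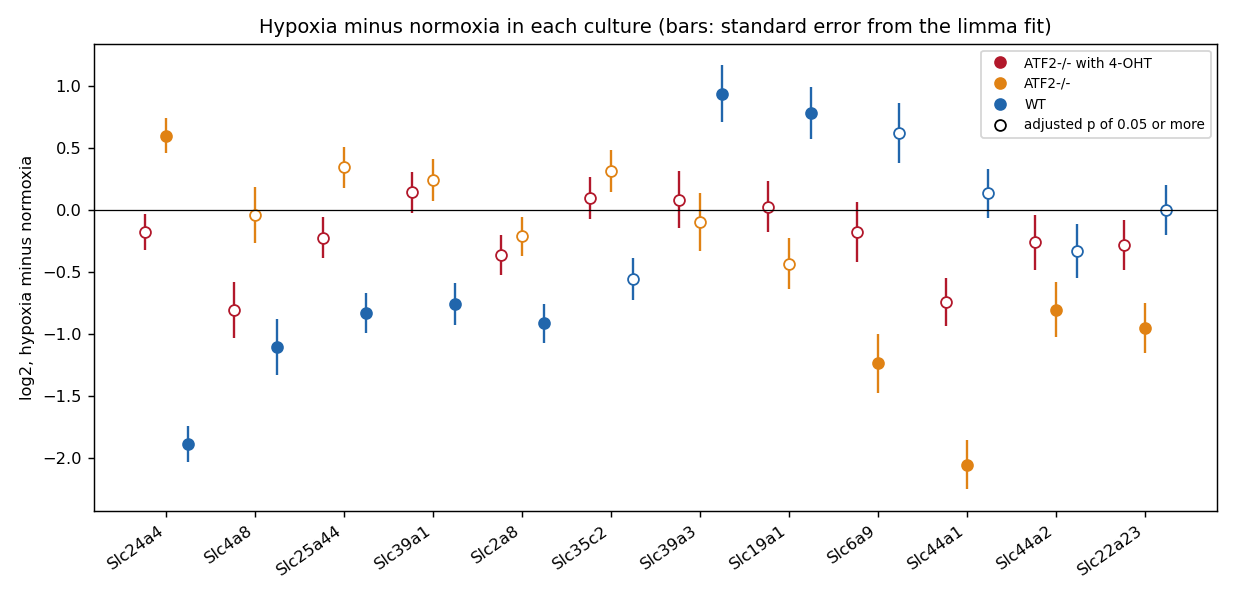
Difference between hypoxia and normoxia (log2, y axis) in ATF2-/- 4-OHT, ATF2-/- and WT cultures for 12 Slc genes, with bars for the standard error of the limma fit and open symbols for an adjusted p of 0.05 or more. Slc24a4 was at 0.60 in ATF2-/- and -1.88 in WT cultures, Slc44a1 at -2.05 in ATF2-/- cultures, and 0 of the 12 genes were called in ATF2-/- 4-OHT cultures.

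Among 8 metal ion transporters, the zinc importers of the Slc39 (ZIP) family carried the changes, in both directions. Slc39a1 (ZIP1) had 341 and 356 units in WT cultures in hypoxia, against 449 and 569 units in WT cultures in normoxia (log2 -0.76, standard error 0.17, adjusted p = 0.0213, or 0.178 without WT hypoxia replicate 2). Slc39a3 (ZIP3) went the other way, with 119.6 and 143 units in WT cultures in hypoxia, against 62.0 and 78.2 units in normoxia (log2 0.94, standard error 0.23, adjusted p = 0.031, or 0.177 without WT normoxia replicate 2). In hypoxia, ATF2-/- cultures had more Slc39a1 (530 and 619.9 units against 341 and 356 units, log2 0.82, adjusted p = 0.00534) and less Slc39a3 (65.8 and 91.6 units against 119.6 and 143 units, log2 -0.81, adjusted p = 0.0274) than WT cultures. In normoxia, ATF2-/- 4-OHT cultures had less Slc39a1 (299.9 and 386 units against 449 and 569 units, log2 -0.70, adjusted p = 0.0129) and more Slc39a3 (149 and 117 units against 62.0 and 78.2 units, log2 0.96, adjusted p = 0.0138) than WT cultures. In hypoxia they also had less Slc39a1 (351 and 444 units against 530 and 619.9 units, log2 -0.63, adjusted p = 0.017) and more Slc39a3 (132 and 148 units against 65.8 and 91.6 units, log2 0.91, adjusted p = 0.0131) than ATF2-/- cultures. The pair thus moved oppositely in each of these 4 comparisons, which share arrays and are the ones where the 2 genes were called. Each of these calls was lost with at least 1 array left out. In the other comparisons of 2 groups neither was called. Between ATF2-/- 4-OHT and WT cultures in hypoxia, the deposited intensities of both genes were higher in ATF2-/- 4-OHT cultures on each slide. The change of Slc39a1 with hypoxia differed between ATF2-/- and WT cultures by 1.00 (standard error 0.24, adjusted p = 0.0209, or 0.106 without ATF2-/- hypoxia replicate 1). For Slc39a3 this difference was -1.03 and was not called (adjusted p = 0.0672, 0.0425 with the slide as a block and 0.00284 in a fit to only the 8 arrays compared).

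Slc39a9 (ZIP9) had 134 and 206 units in ATF2-/- cultures in hypoxia, against 91.6 and 122 units in WT cultures (log2 0.78, standard error 0.16, adjusted p = 0.00573). ATF2-/- 4-OHT cultures had 92.2 and 151 units in hypoxia, below ATF2-/- cultures (log2 -0.61, adjusted p = 0.0161). Slc39a11 (ZIP11) was higher in ATF2-/- than in WT cultures in hypoxia (165 and 193 units against 102 and 128 units, adjusted p = 0.0208) and in normoxia (137 and 213 units against 84.7 and 122 units, adjusted p = 0.0416). Its adjusted p reached 0.155 and 0.239 with 1 array left out. The zinc transporter Slc30a6, the copper transporter-like Slc31a2, Slc39a10 and Slc11a1 were not called without the slide in the fit. With the slide as a block, Slc11a1 (adjusted p = 0.0195) and Slc30a6 (adjusted p = 0.0473) were called between ATF2-/- 4-OHT and ATF2-/- cultures in hypoxia, and Slc11a1 between hypoxia and normoxia in ATF2-/- cultures (adjusted p = 0.0231). Slc11a1 (NRAMP1), a divalent metal transporter known from macrophage phagosomes, had 128 to 459 units and passed on all 12 arrays, whereas the 5 myeloid markers were above background on 0.

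The Slc25 family of mitochondrial carriers had 13 members. Slc25a44, which carries branched-chain amino acids, had 207 and 268 units in WT cultures in hypoxia, against 296 and 421 units in WT cultures in normoxia (log2 -0.83, standard error 0.16, adjusted p = 0.0138, or 0.122 without WT normoxia replicate 2). ATF2-/- cultures in hypoxia had 327 and 439 units, 1.75-fold above WT (adjusted p = 0.00505), and the change with hypoxia differed between ATF2-/- and WT cultures by 1.17 (standard error 0.23, adjusted p = 0.00837). ATF2-/- 4-OHT cultures in hypoxia had 248 and 311 units, below ATF2-/- cultures (log2 -0.54, adjusted p = 0.0315). In hypoxia the glutamate carrier Slc25a22 (log2 0.74, adjusted p = 0.0175) and the ATP-magnesium/phosphate carrier Slc25a25 (log2 0.94, adjusted p = 0.0115) were higher in ATF2-/- than in WT cultures, and Slc25a25 was lower in ATF2-/- 4-OHT than in ATF2-/- cultures (log2 -0.66, adjusted p = 0.048). Slc25a27, the uncoupling protein UCP4, was lower in ATF2-/- than in WT cultures in hypoxia (290.1 and 389 units against 469.8 and 660.4 units, log2 -0.67, adjusted p = 0.0182). Slc25a30 and the NAD carrier Slc25a51 were called higher in ATF2-/- 4-OHT than in WT cultures in normoxia, at least 1.15-fold (adjusted p = 0.0404) and 1.33-fold (adjusted p = 0.0409). Each was above background on 1 array, of that ATF2-/- 4-OHT group, so both became members only through the group where they were high, and nothing is read from their calls. For these 5 carriers the adjusted p against WT reached 0.111 to 0.206 with 1 array left out. Slc25a39, needed for mitochondrial glutathione and at 942 to 3166 units, was not called without the slide in the fit and was called with it as a block, in ATF2-/- against WT (adjusted p = 0.0362) and in ATF2-/- 4-OHT against ATF2-/- cultures (adjusted p = 0.0383), both in normoxia. Slc25a45 had 327 to 584 units and was not called. Between ATF2-/- 4-OHT and ATF2-/- cultures in hypoxia, the calls of Slc25a44 and Slc25a25 were lost in 2 and 5 of 12 settings. Both were also lost with some single arrays left out.

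The nucleotide sugar transporter family Slc35 had 9 members. Slc35c2, a Golgi protein linked to fucosylation, had 457 and 647 units in ATF2-/- cultures in hypoxia, against 311 and 434 units in WT cultures (log2 0.67, standard error 0.17, adjusted p = 0.0155). ATF2-/- 4-OHT cultures had less than ATF2-/- cultures in hypoxia (297 and 358 units, log2 -0.84, adjusted p = 0.004) and less than WT cultures in normoxia (296 and 286 units against 372 and 575 units, log2 -0.81, adjusted p = 0.00681). The change with hypoxia differed between ATF2-/- and WT cultures by 0.86 (adjusted p = 0.041, or 0.166 without WT normoxia replicate 2). Slc35d1, which carries UDP-glucuronate and UDP-GalNAc into the endoplasmic reticulum, was the 1 gene called between ATF2-/- 4-OHT and ATF2-/- cultures in normoxia (3 with the slide as a block), where 3.45% of all probes were lower. It had 57.3 and 62.9 units, against 70.3 and 123 units in ATF2-/- cultures (log2 -0.87, standard error 0.19, adjusted p = 0.0302, or 0.122 without ATF2-/- normoxia replicate 1). In hypoxia Slc35d1 was higher in ATF2-/- than in WT cultures (76.5 and 92.5 units against 48.2 and 59.8 units, log2 0.86, adjusted p = 0.00889). It was lower there in ATF2-/- 4-OHT than in ATF2-/- cultures (log2 -0.60, adjusted p = 0.0409). These 2 calls were lost in 1 and 5 of 12 settings, and both with some single arrays left out. Slc35e2 rose with hypoxia in WT cultures (207 and 254 units against 126 and 151 units, log2 0.62, adjusted p = 0.0458, or 0.261 without WT normoxia replicate 2). Slc35f5 was at least 1.43-fold lower in ATF2-/- than in WT cultures in hypoxia (adjusted p = 0.0213, or 0.171 without WT hypoxia replicate 2). It was above background only on the 2 WT hypoxia arrays, so it became a member only through the group where it was high. Nothing is read from its call. Slc35e3 (652 to 1517 units) and Slc35a4 (501 to 911 units) were not called.

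The remaining families had 1 member each. Slc2a8, the intracellular glucose transporter GLUT8, had 103 and 135 units in WT cultures in hypoxia, against 169.6 and 213 units in normoxia (log2 -0.91, standard error 0.16, adjusted p = 0.00867, or 0.0989 without WT normoxia replicate 1). In hypoxia it was higher in ATF2-/- than in WT cultures (141 and 180.4 units, log2 0.54, adjusted p = 0.031). Slc37a4, the glucose-6-phosphate transporter of the endoplasmic reticulum, had 82.8 and 106 units in ATF2-/- cultures in hypoxia, against 55.8 and 81.9 units in normoxia (log2 0.67, standard error 0.18, adjusted p = 0.0356, or 0.207 without ATF2-/- hypoxia replicate 1). Slc22a23, an orphan of the organic ion family, had 435 and 675 units in ATF2-/- cultures in hypoxia, against 847 and 1354 units in normoxia (log2 -0.95, standard error 0.20, adjusted p = 0.0115, or 0.111 without ATF2-/- hypoxia replicate 1). ATF2-/- 4-OHT cultures in hypoxia had 848 and 1565 units, 2.03-fold above ATF2-/- cultures (adjusted p = 0.00353). In normoxia they had 1182 and 1342 units, against 529 and 764 units in WT cultures (log2 0.94, adjusted p = 0.00787). Slc45a4 was higher in ATF2-/- 4-OHT than in ATF2-/- cultures in hypoxia (log2 0.58, adjusted p = 0.0355, or 0.175 without ATF2-/- hypoxia replicate 1). Of the 2 symbols that name no transporter, Slc7a6os was lower in ATF2-/- 4-OHT cultures in 3 comparisons, most against ATF2-/- cultures in hypoxia (147 and 267 units against 338 and 517 units, log2 -1.20, adjusted p = 0.00108). Slc9a3r1 was higher in ATF2-/- than in WT cultures in hypoxia (279 and 367 units against 179 and 252 units, log2 0.71, adjusted p = 0.00995).

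**Figure D4:**
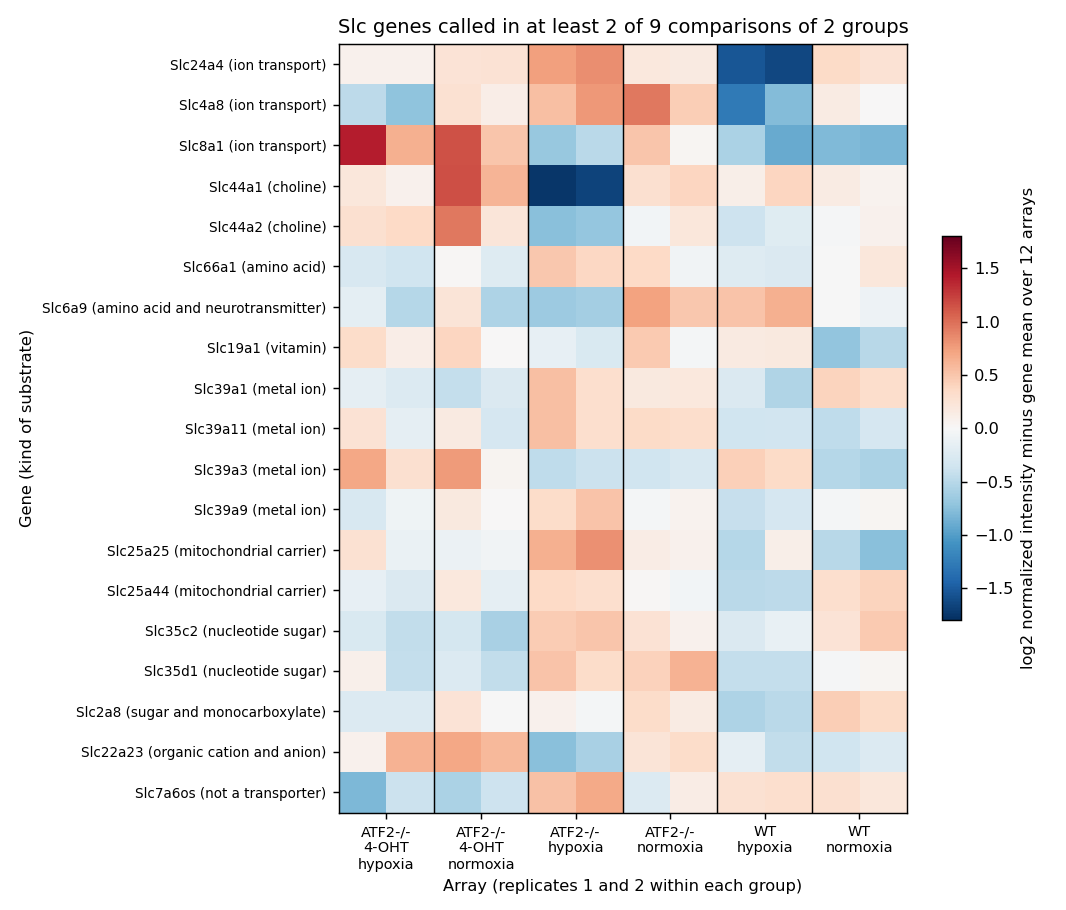
Normalised log2 intensity minus the gene's mean over 12 arrays (colour) for the 19 Slc genes called in at least 2 of the 9 comparisons of 2 groups, with genes in rows ordered by kind of substrate and arrays in columns by group. Slc24a4 was lowest in WT hypoxia, Slc44a1 in ATF2-/- hypoxia, and Slc8a1 was above background only in the 2 ATF2-/- 4-OHT groups and in ATF2-/- normoxia.

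The counts per comparison stood near the share of all probes in most cases. In ATF2-/- 4-OHT cultures hypoxia raised 0 of the 56 genes (0.0268% of all probes) and lowered 0 (0% of all probes), with 7 genes at an unadjusted p under 0.05 (limma) and 0 called with the slide as a block. Without ATF2-/- 4-OHT normoxia replicate 2 this comparison called 4 Slc genes. In ATF2-/- cultures hypoxia raised 2 (3.57%, against 5.62% of all probes) and lowered 5 (8.93%, against 6.65% of all probes). In WT cultures it raised 3 (5.36%, against 5.30% of all probes) and lowered 5 (8.93%, against 4.86% of all probes). Of 13 HIF target genes with a kept probe 0 were called in ATF2-/- 4-OHT cultures, at a median log2 change of 0.47, while 4 rose and 1 fell in ATF2-/- cultures (median 0.38) and 6 rose and 0 fell in WT cultures (median 0.66). The test of the difference in the change with hypoxia called 7 Slc genes between ATF2-/- and WT cultures (11 with the slide as a block), where 11.8% of all probes were called. It called 1 between ATF2-/- 4-OHT and WT cultures (0.409% of all probes) and 1 between ATF2-/- 4-OHT and ATF2-/- cultures (5.17%), or 2 with the slide as a block, where Slc24a4 was added (adjusted p = 0.0494).

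Between ATF2-/- and WT cultures in hypoxia 13 Slc genes were higher (23.2%), where 12.4% of all probes were, and 5 lower (8.93%), where 12.4% of all probes were. The median log2 difference was 0.16 over the 56 genes and -0.02 over all probes. In normoxia 4 were higher (8.31% of all probes) and 0 lower (5.98% of all probes). Between ATF2-/- 4-OHT and WT cultures 3 were higher (6.83% of all probes) and 2 lower (5.86% of all probes) in hypoxia, and 7 higher (11.1% of all probes) and 4 lower (11.7% of all probes) in normoxia. Between ATF2-/- 4-OHT and ATF2-/- cultures 6 were higher (13.7% of all probes) and 10 lower (17.9%, against 15.0% of all probes) in hypoxia, and 0 higher (2.54% of all probes) and 1 lower (3.45% of all probes) in normoxia. The 3 comparisons under hypoxia share arrays pairwise, so their counts are not independent. Nothing is read from the calls of Slc8a1, Slc7a4, Slc25a30, Slc25a51 and Slc35f5 in these or later counts, as said with each gene. With each array left out in turn, the 18 genes called between ATF2-/- and WT cultures in hypoxia became 7 without either ATF2-/- hypoxia array or without WT hypoxia replicate 1, and 21 without either ATF2-/- 4-OHT normoxia array. Of all 79 calls, the 9 on differences included, 23 kept an adjusted p under 0.05 with each array left out. These included 5 of Slc24a4, 4 of Slc44a1, 3 of Slc8a1, 2 each of Slc4a8, Slc25a44 and Slc6a9, and 1 each of Slc22a23, Slc35c2, Slc44a2 and Slc7a6os. The other 56 were lost with at least 1 array left out, where the highest adjusted p was 0.0651 to 0.343.

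**Figure D5:**
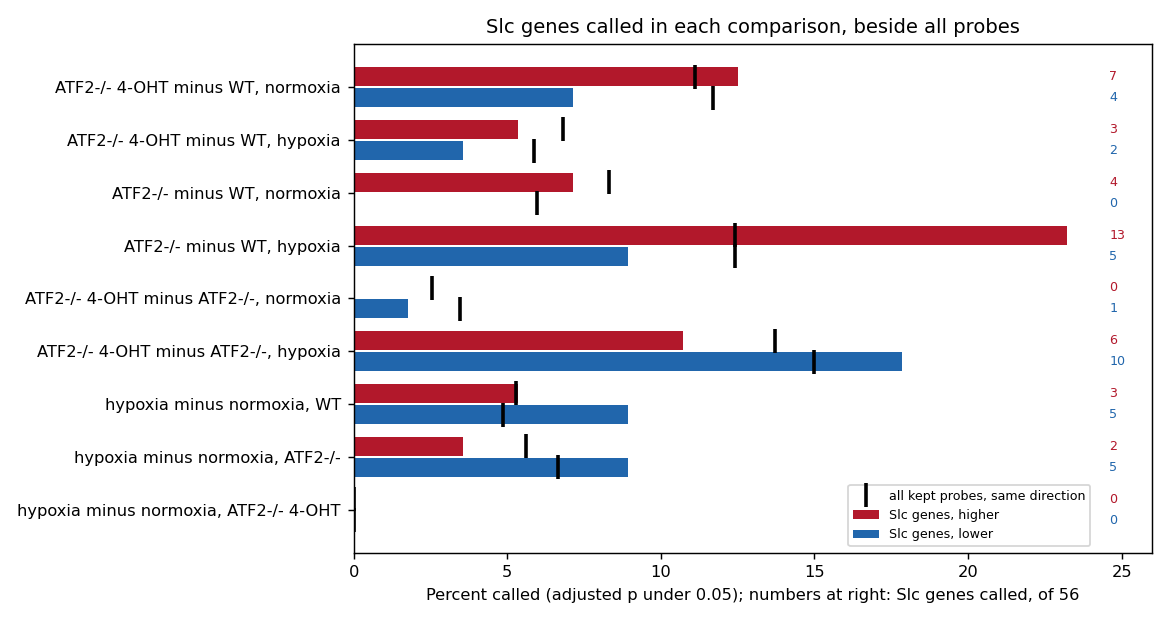
Percent of the 56 Slc genes called higher (red) or lower (blue) in each of the 9 comparisons of 2 groups, with black marks for the percent of all 14906 kept probes called in the same direction and the number of genes at the right. ATF2-/- against WT in hypoxia had 13 higher (23.2%, mark at 12.4%) and 5 lower, and hypoxia in ATF2-/- 4-OHT cultures had 0 in both directions.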

How the data were processed

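RNA of 12 cultures of primary mouse melanocytes was hybridised to Illumina Mouse-6 BeadChip arrays, 6 groups of 2 arrays. The authors exported one intensity and one detection p-value per probe and array from BeadStudio, and these deposited intensities are not normalised. A table of values normalised by the authors (cubic spline, per the paper's methods) served as an alternative. The array's genome build is not given in the sources used here. Intensities were background corrected from the detection p-values (normexp, offset 16), quantile normalised and put on the log2 scale with limma 3.58.1 in R 4.3.3. On 5 probes, detection p-values lay above 0 but below the step of the negative controls (1 in 1603), and these values were set to 0 first. Of 46628 probes 26 controls were set aside, and the 14906 that passed a detection p of 0.01 on 1 array or more were kept. A single model with 6 group means was fitted to all 12 arrays, and p-values were adjusted over all kept probes by Benjamini-Hochberg. It gave 9 comparisons of 2 groups and 3 tests of the difference in the change with hypoxia. A gene was read from its kept probe with the highest mean. The script was tested on simulated data. The number of arrays, 2 a group, limits the precision.

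Genes named are the up to 5 largest rises and 5 largest falls called in each comparison of 2 groups with groups that do not overlap, the genes called in a difference test, the 10 with the highest mean value, listed genes of known role, and those next to the detection limit. The members and lists were chosen with earlier results of these data known. Slc25a22, Slc39a9, Slc45a4, Slc9a3r1, Slc7a2, Slc38a9, Slc52a2, Slc9a8, Slc11a1, Slc30a6 and Slc31a2 were named after their values were seen. Printed intensities are as deposited, background included, and fold changes are on the normalised scale, where the offset understates changes of dim probes. Listed transporters without a named probe were not analysed here. Some members are not reported here by name.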

Additional observations from a re-analysis of the deposited data

Results flagged for a closer look

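The change with hypoxia differed between cultures in 9 tests over 7 Slc genes, by limma's test of the difference itself, each on the log2 scale with 2 arrays a group. Between ATF2-/- and WT cultures the difference was 2.48 for Slc24a4, -2.19 for Slc44a1, -1.86 for Slc6a9, -1.22 for Slc19a1, 1.17 for Slc25a44, 1.00 for Slc39a1 and 0.86 for Slc35c2. Between ATF2-/- 4-OHT and WT cultures it was 1.71 for Slc24a4, and between ATF2-/- 4-OHT and ATF2-/- cultures 1.31 for Slc44a1. The muscle markers, whose summed intensity was 324 and 433 units in ATF2-/- cultures in hypoxia and 6659 and 9563 units in ATF2-/- cultures in normoxia, move with the comparisons that use ATF2-/- cultures, and their part was not tested. The cultures' sex and genotype cannot be told apart in the differences from WT.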

How the results depend on the processing

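None of the 79 calls changed direction under any alternative, but 15 passed the threshold in every setting and with each array left out. Calls lost were 56 with median scaling, 23 with the detection p-values as they stand, 19 with no filter, 17 in fits to only the arrays compared, 11 without the ATF2-/- hypoxia arrays, 6 with no background correction, 4 with the offset of 50, 4 with the authors' normalised values and 1 with the intensity trend. Counts of Slc genes called moved by more than 1.5 times as follows, and the cause was not tested. With median scaling in place of quantile normalisation the count between ATF2-/- 4-OHT and WT cultures was 2 in normoxia (11 as reported) and 2 in hypoxia (5), between ATF2-/- and WT cultures 2 in normoxia (4) and 4 in hypoxia (18), and between ATF2-/- 4-OHT and ATF2-/- cultures 0 in normoxia (1) and 6 in hypoxia (16). It was 1 for hypoxia in WT cultures (8), 2 for hypoxia in ATF2-/- cultures (7), and 0, 4 and 0 for the differences in the change with hypoxia between ATF2-/- 4-OHT and WT (1), ATF2-/- and WT (7) and ATF2-/- 4-OHT and ATF2-/- (1). Median scaling moved the median of all probes to 0.14 for hypoxia in WT cultures (0.00 as reported) and the difference between ATF2-/- and WT to -0.18 (0.02). Higher calls made up 74.2% of all probes called between ATF2-/- 4-OHT and WT in normoxia (48.7% as reported), 73.2% in hypoxia (53.8%), 88.5% between ATF2-/- and WT in normoxia (58.1%), 6.82% between ATF2-/- 4-OHT and ATF2-/- in normoxia (42.4%), 60.0% in hypoxia (47.7%), 78.8% for hypoxia in WT (52.1%) and 15.0% in ATF2-/- cultures (45.8%). For the differences they made up 12.0% between ATF2-/- and WT (46.4%) and 96.3% between ATF2-/- 4-OHT and ATF2-/- (75.6%).

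Fits to only the arrays compared called 3 between ATF2-/- 4-OHT and WT in normoxia, 8 between ATF2-/- and WT in normoxia and 28 in hypoxia, 0 between ATF2-/- 4-OHT and ATF2-/- in normoxia, 21 for hypoxia in WT, and 0, 16 and 0 for the 3 differences. With no filter on probes 3 were called between ATF2-/- 4-OHT and WT in hypoxia, 1 between ATF2-/- and WT in normoxia, 2 between ATF2-/- 4-OHT and ATF2-/- in normoxia and 2 for their difference. With the detection p-values as they stand 1 was called between ATF2-/- and WT in normoxia, 2 between ATF2-/- 4-OHT and ATF2-/- in normoxia and 2 for the difference between ATF2-/- 4-OHT and WT. ATF2-/- 4-OHT against ATF2-/- gave 2 in normoxia and 2 for the difference with no background correction and with an offset of 50. The intensity trend gave 2 in normoxia, the authors' normalised values gave 2 for the difference, and the offset of 50 gave 11 for the difference between ATF2-/- and WT. Replicate numbers coincide with slides. Deviations of same-numbered arrays correlated at -0.22 to 0.60 over 15 pairs of groups (median 0.20, 12 over 0.1). Not every pair exceeded 0.1 and the labels name no shared animal, so the fit reported has no block. The replicate block lost 0 of the 79 calls and gave 3 between ATF2-/- 4-OHT and ATF2-/- in normoxia, 11 for the difference between ATF2-/- and WT and 2 for that between ATF2-/- 4-OHT and ATF2-/-.

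Chosen after seeing the data, a fit without the arrays of ATF2-/- hypoxia gave 3 between ATF2-/- 4-OHT and WT in hypoxia, 2 between ATF2-/- and WT and 0 between ATF2-/- 4-OHT and ATF2-/- in normoxia, 5 for hypoxia in WT and 0 for the difference between ATF2-/- 4-OHT and WT. A fit without the arrays of ATF2-/- 4-OHT normoxia gave 9 between ATF2-/- 4-OHT and WT in hypoxia, 9 between ATF2-/- and WT in normoxia, 16 for hypoxia in WT, 11 in ATF2-/- cultures and 13 for the difference between ATF2-/- and WT.

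With 1 array left out, the lone array of its group was assumed to vary like the others. Counts then ranged from 3 (either WT array) to 16 (without ATF2-/- 4-OHT normoxia replicate 2) between ATF2-/- 4-OHT and WT in normoxia and from 2 (either WT array) to 9 in hypoxia. They ranged from 0 (without ATF2-/- replicate 1 or either WT array) to 9 between ATF2-/- and WT in normoxia and from 7 to 21 in hypoxia, and between ATF2-/- 4-OHT and ATF2-/- from 0 to 11 (without ATF2-/- 4-OHT normoxia replicate 2) in normoxia and from 8 (without ATF2-/- hypoxia replicate 1) to 22 in hypoxia. For hypoxia they ranged from 1 (without any 1 of the WT arrays) to 16 in WT, from 1 to 11 in ATF2-/- and from 0 to 4 in ATF2-/- 4-OHT cultures. For the differences they ranged from 0 to 7 between ATF2-/- 4-OHT and WT, 4 to 13 between ATF2-/- and WT and 0 to 4 between ATF2-/- 4-OHT and ATF2-/-. Each of the highest counts came without an ATF2-/- 4-OHT normoxia array, the group whose arrays differed most.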
